A study of Homo sapiens with 9 samples.

Results

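The comparison described here set OVCAR3 cells carrying the milder of a pair of hairpins against GPX3 beside cells carrying a scramble hairpin, and covered every gene expressed in them. OVCAR3 is an established human line of high-grade ovarian carcinoma. The members are 6 of the 9 RNA libraries of the series, chosen by their group labels: 3 with the scramble hairpin, whose genotype is labelled WT, and 3 with hairpin 76, called sh76 below and labelled GPX3 knock-down. The other 3 libraries carried hairpin 78, called sh78, and are used to show where sh76 differs. RNA was taken 72 h after the knockdown in every group, and all groups shared the same line and the same medium with serum and insulin. The labels do not say whether the replicates came from separate transductions, so p-values measure the spread between these samples, part of which may be technical.

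GPX3 encodes glutathione peroxidase 3, a secreted enzyme that reduces hydrogen peroxide and lipid peroxides with glutathione as the electron donor. It is a selenoprotein, which means that a selenocysteine, inserted at a recoded stop codon, sits in its active site. A short hairpin RNA is cut by the cell into a small guide RNA, and the guide lowers mRNAs that match it. The sequences of the hairpins were not used here.

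The targeted gene was lower in every sh76 library. GPX3 (ENSG00000211445, GRCh38 chromosome 5, 151020438 to 151028993, plus strand) stood at 173, 109 and 117 CPM (counts scaled to library size and composition) in scramble replicates 1 to 3. It stood at 56.8, 55.2 and 55.5 CPM with sh76 and at 35.3, 28.4 and 28.3 CPM with sh78, so the 3 groups did not overlap. The fitted log2 fold change of sh76 over scramble was −1.22 (SE 0.11, adjusted p = 2.43e-04), and the mean level was 42.8% of that with scramble. With sh78 GPX3 lay a further 0.88 lower on the log2 scale than with sh76 (adjusted p = 2.9e-03), so sh76 left more of the targeted mRNA. GDF15, which encodes a secreted stress-induced member of the TGF-beta superfamily and is named in the title of the series, lay at 13.4, 14.2 and 13.1 CPM with scramble and at 1.79, 4.55 and 4.44 CPM with sh76. Its log2 fold change was −1.92 (SE 0.18, adjusted p = 1.28e-08), and each of the 3 same-numbered pairs of libraries fell, by 2.83, 1.62 and 1.54.

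The libraries held 15517932 to 17759012 counts with scramble and 15903902 to 21327562 with sh76, so that 1 CPM amounted to 15.6 to 21 counts. Mitochondrial genes took 4.242% to 4.909% of the counts in these 6 libraries. Of 18 markers of ovarian carcinoma, 17 reached 1 FPKM (fragments scaled to gene length and library size, a level that allows genes to be compared), and their sum ran from 3500 to 3810 FPKM with scramble and from 3320 to 3720 FPKM with sh76. These sums overlapped, but 10 of the 18 markers were called lower and 4 higher with sh76. Over all genes tested 10.7% were lower and 9.63% higher. In the highest quartile of mean CPM with scramble 20.4% were lower and 13.1% higher. Several of the falls were small on the log2 scale: MSLN −0.13, CDH1 −0.14, CLDN3 and CLDN4 −0.15, EPCAM −0.17 and KRT8 −0.21. The 4 that rose were MUC1 (log2 fold change 0.55), KRT19 (0.36), KRT7 (0.23) and MUC16 (0.19). PAX8, a lineage factor of Müllerian epithelium, averaged 121 FPKM with scramble and 99.6 FPKM with sh76 (log2 fold change −0.28). The folate receptor gene FOLR1 averaged 38.3 and 17.6 FPKM (−1.14) and the lineage factor SOX17 78.3 and 64.6 FPKM (−0.27), while the estrogen receptor gene ESR1 stayed at or below 0.11 FPKM in all 9 libraries. Markers of other cell types were low. The sums, scramble first, were 2.91 to 4.08 and 3.22 to 5.81 FPKM for 9 fibroblast markers. They were 3.02 to 3.37 and 3.01 to 3.85 for 7 endothelial markers, and 0.806 to 1.32 and 1.42 to 1.55 for 8 leukocyte markers. The fibroblast marker COL1A1 (mean 3.27 to 3.83 FPKM) and the endothelial marker KDR (1.42 to 2.07 FPKM) were called higher with sh76. The B-cell marker MS4A1 had no count in any library. Mesothelial markers summed to 14.4 to 18.3 and 13.3 to 16.9 FPKM, nearly all of it UPK3B. In bulk RNA, fewer cells of a type and less RNA per cell cannot be told apart.

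Of 17023 genes tested, 3467 (20.4%) passed an adjusted p of 0.05 for sh76 against scramble in edgeR's quasi-likelihood test with the replicate number as a block. There were 1639 higher (9.63%) and 1828 lower (10.7%). Without the block 610 genes passed (3.58%), 243 of them higher and 367 lower, and all 610 were also called with the block in the same direction. Most changes were small. The median absolute log2 fold change of the called genes was 0.3, 2535 of them (73.1%) moved by less than 0.5, and 143 rose and 120 fell by at least 1. In 3402 of the called genes (98.1%) all 3 same-numbered pairs moved in the direction of the call. A test that blocks on the replicate number favours such genes, so this share is no independent evidence. The 3 sh76 libraries lay wholly above or below the 3 scramble libraries in 3826 genes (22.5%), among them 2309 of the called genes.

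**Figure D1:**
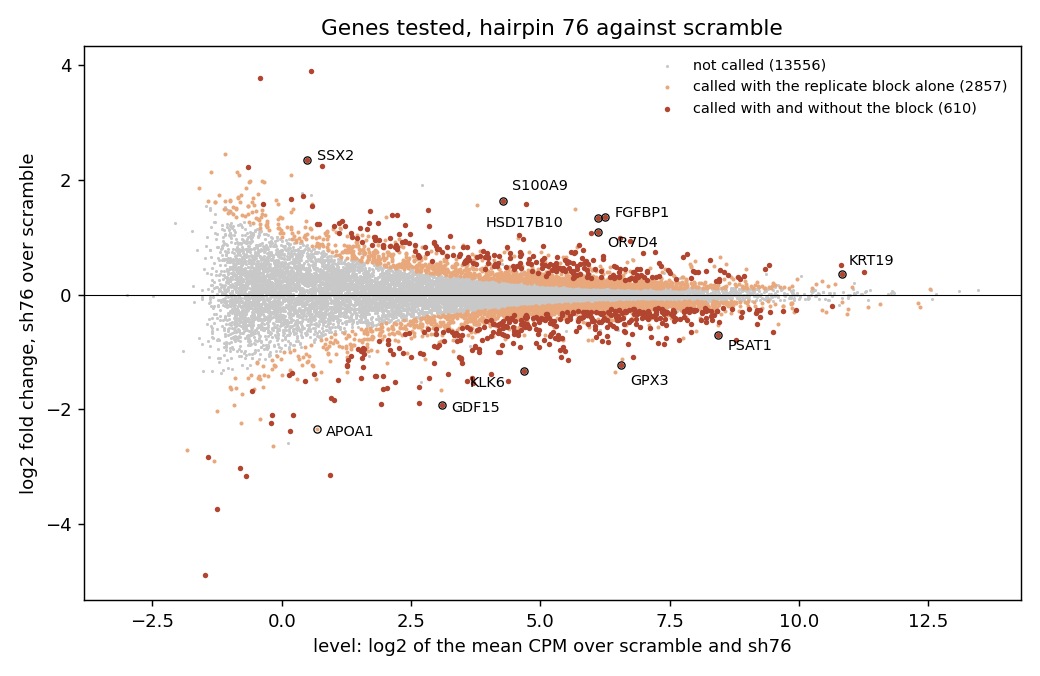
Each point is 1 of the 17023 genes tested: the x axis is the log2 of the mean CPM over scramble and sh76, and the y axis is the log2 fold change of sh76 over scramble. The 610 genes called in both fits and the 2857 called with the replicate block alone lie mostly within 1 of 0; GDF15 and GPX3 are among the lower points and SSX2, S100A9 and FGFBP1 among the higher ones, and unlabelled points further from 0 did not meet the conditions for naming.

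The genes that rose most with sh76 included a block of calcium-binding S100 genes from the epidermal differentiation region of chromosome 1. S100A9, a subunit of the inflammatory protein calprotectin, lay at 10.3, 7.28 and 10.6 CPM with scramble and at 25.7, 31.1 and 30.7 CPM with sh76, and rose by 1.63 (SE 0.12, adjusted p = 4.47e-10). Its partner subunit S100A8 went from 1.29, 0.704 and 0.861 CPM to 1.48, 2.13 and 3.15 CPM, a log2 fold change of 1.23 (SE 0.32, adjusted p = 4.35e-03). No library overlapped for either gene, as the rule for naming them required. S100A8 failed without the block (adjusted p = 0.0747) and in 5 of 9 fits that left out libraries. S100A3 lay at 0.643, 0.645 and 0.976 CPM with scramble and at 1.85, 3.25 and 1.67 CPM with sh76 (log2 fold change 1.54, adjusted p = 4.92e-04). Its locus overlaps S100A4, so some of its reads may belong to that gene.

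Among abundant secreted proteins, FGFBP1 stood out. It encodes a carrier that releases fibroblast growth factors from the matrix, and it went from 32.3, 45.4 and 51.3 CPM to 88.6, 117 and 124 CPM, a log2 fold change of 1.36 (SE 0.06, adjusted p = 2.25e-19). With sh78 it lay at 23.3, 41.4 and 37.7 CPM, below sh76 in every library. KCNQ3, a voltage-gated potassium channel subunit, had 10.5, 13.7 and 15 CPM with scramble and 23.4, 47.3 and 48.3 CPM with sh76 (log2 fold change 1.58, SE 0.13, adjusted p = 3.71e-06). ATP6V1C2, a subunit of the proton-pumping vacuolar ATPase, went from 4.05, 2.99 and 4.25 CPM to 9.25, 11.6 and 10.5 CPM (log2 fold change 1.48, adjusted p = 8.29e-10), and its locus overlaps PDIA6. EMILIN2, an extracellular matrix glycoprotein, rose by 1.21 (SE 0.17, adjusted p = 6.23e-07).

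MALL, a lipid-raft protein of the MAL family, had a log2 fold change of 1.56 (adjusted p = 0.0317), and PPP1R27, a regulatory subunit of protein phosphatase 1, of 1.17 (adjusted p = 0.0122). Both calls were lost without the block (adjusted p = 0.117 and 0.131) and in 6 of 9 fits that left out libraries. SSX2, a cancer-testis antigen gene, had the highest fold of the named genes, 2.35 (SE 0.39, adjusted p = 1.14e-05). Its counts were 2, 7 and 15 with scramble and 5, 1 and 8 with sh78, against 18, 55 and 69 with sh76. It met the count filter and the 1 FPKM naming level through the sh76 libraries, so its fold is no independent evidence of a rise. SSX2 and its near-identical copy SSX2B moved in opposite directions, and their summed level was 2 ± 1.51 CPM with scramble and 2.6 ± 0.94 CPM with sh76 (SD, n = 3), so the split of reads between the copies, and with it the change of SSX2, is uncertain.

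A pair of mid-level genes rose with little spread between libraries. HSD17B10, a dehydrogenase of mitochondria with a second role in processing mitochondrial tRNAs, went from 39.8, 38.5 and 38.9 CPM to 103, 91.5 and 102 CPM (log2 fold change 1.33, SE 0.06, adjusted p = 2.37e-21). OR7D4, an olfactory receptor gene, went from 44, 45.2 and 44.2 CPM to 84, 103 and 95.9 CPM (log2 fold change 1.08, SE 0.06, adjusted p = 1.02e-15). DYNLRB1, a light chain of the dynein motor, showed the same kind of separation, from 38, 43.9 and 40.7 CPM to 86.2, 82.3 and 88.5 CPM (log2 fold change 1.07, SE 0.06). HSD17B10 and DYNLRB1 had log2 fold changes of 1.29 and 1.11 with sh78, and sh78 did not differ from sh76 past the threshold for either (log2 difference −0.04 and 0.04, SE 0.05 in each, adjusted p = 0.65 and 0.68).

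The genes that fell most with sh76 included several for secreted proteins. APOA1, the main protein of high-density lipoprotein, lay at 2.83, 2.88 and 2.12 CPM with scramble and at 1.23, 0.242 and 0.286 CPM with sh76 (log2 fold change −2.34, SE 0.38, adjusted p = 1.64e-05). It missed the threshold without the block (adjusted p = 0.0531). SERPINA5, the protein C inhibitor, went from 13.1, 7.75 and 8.73 CPM to 3.76, 2.71 and 1.53 CPM (log2 fold change −1.89, SE 0.19, adjusted p = 4.1e-10). INHBE, the inhibin beta E chain, went from 8.1, 5.46 and 4.94 CPM to 2.47, 1.6 and 1.91 CPM (log2 fold change −1.62, SE 0.21). ADAMTS8, a matrix metalloproteinase with thrombospondin motifs, went from 23.1, 18 and 16.8 CPM to 8.39, 7.07 and 4.58 CPM (log2 fold change −1.54, SE 0.12, adjusted p = 5.86e-14). In each of these genes every sh76 library lay below every scramble library, as the rule for naming them required. Reads of HSD17B10, FOXJ1, MTHFD2, PCK2, NDUFA4L2, FADS1 and KRT18 can include those of a gene that overlaps each of them.

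Genes for a ciliary factor, a polarity protein and membrane proteins were also among the largest falls. FOXJ1, the master factor of motile cilia, went from 27.3, 30.2 and 35 CPM to 8.33, 12.2 and 11.8 CPM (log2 fold change −1.5, SE 0.27, adjusted p = 0.0203), but lost its call in 4 of 9 fits that left out libraries, over which the fold change ran from −1.72 to −1.33. CRB2, an apical polarity protein whose locus overlaps DENND1A, fell by 1.66 (SE 0.16, adjusted p = 1.35e-10), and its libraries spread widely with the replicate number, so that it failed without the block (adjusted p = 0.142). KIF26B, a kinesin family member, went from 21.5, 15.1 and 16.5 CPM to 5.86, 6.59 and 5.96 CPM (log2 fold change −1.5, SE 0.12). TSPAN7, a membrane tetraspanin, OTUD1, a deubiquitinase, and BEX1, a small adaptor protein, fell by 1.46, 1.45 and 1.42. AC007325.4, with the lowest value of the named genes (log2 fold change −2.37), lies on an unplaced scaffold and is reported as uncertain.

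**Figure D2:**
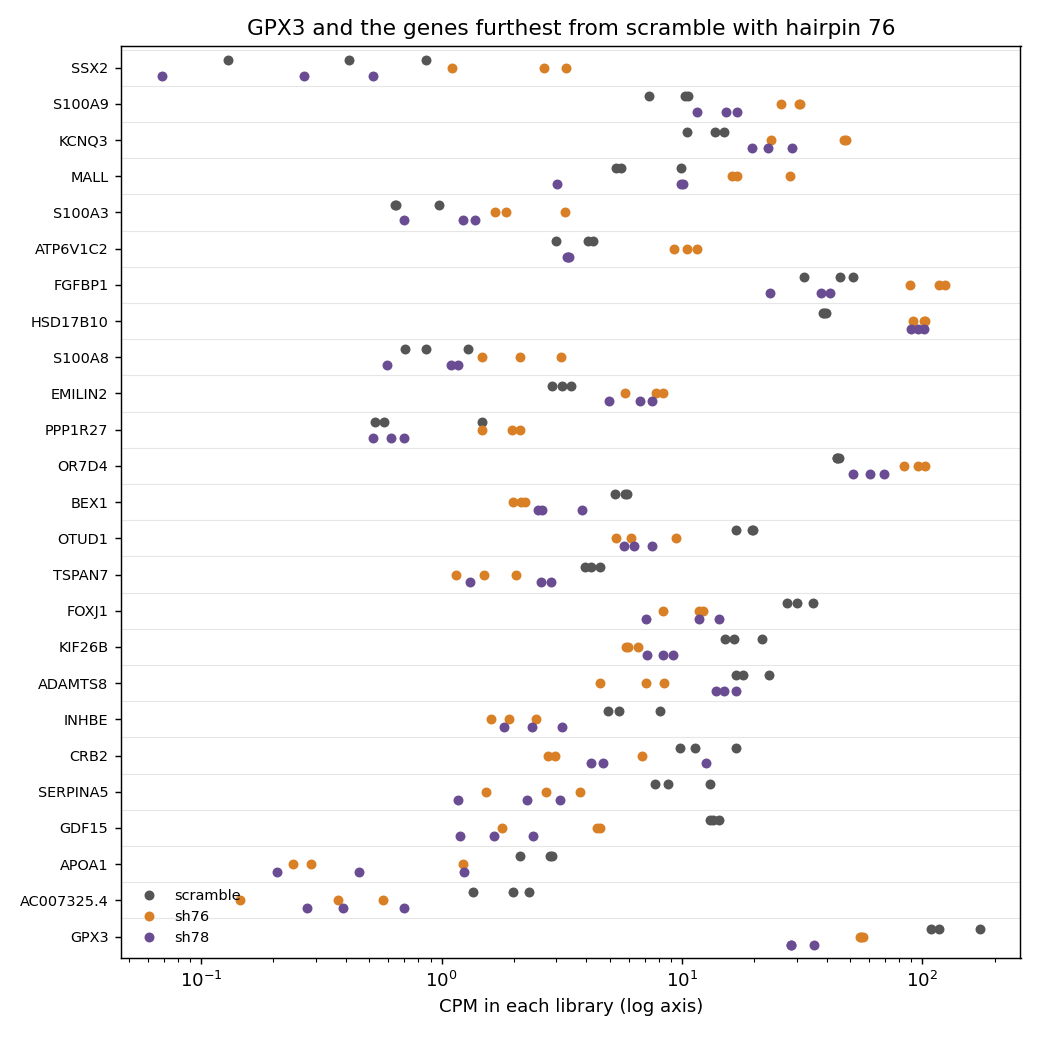
CPM in each library on a log axis for GPX3 and for the 12 genes with the largest rise and the 12 with the largest fall with sh76 among the genes that met the conditions for naming; each point is 1 library, grey for scramble, orange for sh76 and purple for sh78. The sh76 points of FGFBP1 lie at 88.6 to 124 CPM, above both other groups, while those of HSD17B10 lie at 91.5 to 103 CPM among the sh78 points.

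In terms of transcript abundance the largest gains included epithelial and chaperone genes. KRT19, a simple-epithelial keratin, rose from a mean of 679 to 866 FPKM (log2 fold change 0.36, SE 0.04, adjusted p = 2.5e-09). HSP90AA1, the stress-inducible cytosolic HSP90, rose by 0.39, S100A6 by 0.44 and LGALS3BP, a secreted galectin ligand, by 0.51. The largest losses of abundance included FTH1, the ferritin heavy chain (−0.31), KRT18, the simple-epithelial type I keratin (−0.34), ACTG1, a cytoplasmic actin (−0.22), PSAT1, an enzyme of serine synthesis (−0.71), and MDK, a secreted heparin-binding growth factor (−0.38). FTH1, KRT18 and ACTG1 missed the threshold without the block (adjusted p = 0.188, 0.0573 and 0.0667), as did the ribosomal protein genes RPS27 (0.17, adjusted p = 0.16) and RPS3 (−0.15, adjusted p = 0.205) named by the same rule.

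The lists of genes by function numbered 62, and the count of members called is read below against 9.63% higher and 10.7% lower over all genes tested, whose median log2 fold change was 0.01. These shares depended on level. In the lowest quartile of mean CPM with scramble 5.31% of genes were higher and 1.93% lower, and in the highest 13.1% and 20.4%. The lists were not matched for level, so a share near 20.4% lower in a list of abundant genes is no more than that of genes at such levels. More members were lower than higher in 32 lists and more were higher in 25.

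Large shares of the genes of the amino acid response were lower with sh76. When amino acids run short or the endoplasmic reticulum is stressed, kinases phosphorylate the initiation factor eIF2, and the factor ATF4 is then translated and induces genes of amino acid import, synthesis and tRNA charging, a programme known as the integrated stress response (ISR). Of 25 ISR effectors tested, 18 fell and none rose, 12 of them also without the block, and all 25 had a negative fold change, with a median of −0.32 (−0.48, −0.33 and −0.32 in the 3 same-numbered pairs). Among the factors, ATF4 itself changed by −0.27, ATF5 by −0.48, DDIT3, also known as CHOP, by −0.57 and CEBPG by −0.36, all of them calls. TRIB3, a pseudokinase that restrains the response, went from 106, 93.3 and 93.1 CPM to 56.2, 60.6 and 60 CPM (log2 fold change −0.72, SE 0.06, adjusted p = 1.82e-13). CHAC1, which degrades glutathione, went from 29.6, 24.4 and 20.2 CPM to 15.1, 14.8 and 10.6 CPM (log2 fold change −0.87, SE 0.1, adjusted p = 2.5e-09). No library overlapped in either gene. GDF15 is a member of the list, and it and the list were chosen with results of these libraries known, so the count is no independent evidence of direction.

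Enzymes and carriers of amino acids had members in both directions. Of 18 serine and one-carbon enzymes 9 fell and 3 rose (7 and 1 without the block; median −0.27, and −0.16 with limma on log2(FPKM + 1)). MTHFD2, a mitochondrial folate enzyme, went from 306, 243 and 230 CPM to 167, 147 and 136 CPM (log2 fold change −0.79, SE 0.04, adjusted p = 2.49e-18), and ALDH1L2, a neighbour in the same pathway, fell by 0.59. Its relative MTHFD2L rose by 0.55 (adjusted p = 4.44e-05), from 13.5, 14.5 and 10.5 CPM to 20.4, 18.9 and 16.9 CPM. PSAT1 lay at 467, 422 and 408 CPM with scramble and at 254, 273 and 266 CPM with sh76. Of 27 genes of amino acid transport and synthesis 15 fell and 2 rose (7 and 0 without the block; median −0.17, and −0.11 without replicate 1 of all groups). SLC7A11, the cystine importer that feeds glutathione synthesis, went from 58.4, 40 and 40.5 CPM to 30.9, 27.7 and 28.9 CPM (log2 fold change −0.65, SE 0.07), and SLC7A5, a leucine carrier, from 842, 888 and 931 CPM to 450, 609 and 647 CPM (log2 fold change −0.65, SE 0.08). ASNS, the asparagine synthetase gene, fell by 0.59 with the block (adjusted p = 0.0246) and failed without it (adjusted p = 0.197) and in 7 of 9 fits that left out libraries. PCK2, the mitochondrial phosphoenolpyruvate carboxykinase, fell by 0.81 (adjusted p = 2.08e-03).

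Transfer RNA synthetases, which load amino acids on tRNAs, work in the cytosol or in mitochondria. Of 23 cytosolic synthetase genes 10 fell and none rose (6 fell without the block; median −0.11). AARS, for alanine, had the largest change, from 142, 138 and 122 CPM to 91.7, 81.3 and 78.3 CPM (log2 fold change −0.68, SE 0.05), and CARS, GARS and SARS fell by 0.3, 0.29 and 0.3. Of 17 mitochondrial synthetase genes none was called by edgeR in either fit, and their median was −0.01. At an unadjusted p under 0.05, 3 of them were higher and 1 lower with the block and 0 passed without it. The difference between the compartments was not tested.

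ATF4 pairs with C/EBP factors at a composite site, and the 8 letters TGATGCAA of that site were searched on both strands of the RefSeq promoters (GRCh38.p14), each running from 250 bases before to 50 after a start site. Of the 92 genes tested in the 4 amino acid lists, 60 were matched to 103 promoters. Their sites are shown because every one of the 8 genes with a match was called lower with sh76. The letters stood in 10 of the 103 promoters (9.71%), against 304 of all 35116 promoters (0.866%) and 86 of the 16567 promoters of genes tested (0.519%). Among list members, 8 of 33 matched genes that fell had the letters and 0 of the 23 that were not called did. Over all genes, the share was 24 of 2194 promoters (1.09%) of genes that fell and 7 of 1649 (0.424%) of genes that rose. The 24 include the 10 promoters of the list members, so this share is not separate from that of the lists. The list members were chosen partly as known ATF4 targets, and a match describes letters, not binding. Each window below is 30 bases long, 5′ to 3′ on the strand of the gene, with the matched letters, or their reverse complement, in capitals.
CHAC1 (chr15:40953251-40953280, plus): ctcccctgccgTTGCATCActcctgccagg
SLC1A4 (chr2:64989381-64989410, plus): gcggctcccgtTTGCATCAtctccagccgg
BCAT1 (chr12:24949131-24949160, minus): tgtcttcctgcTGATGCAAtccgctaggtc
SLC1A5 (chr19:46784893-46784922, minus): gaggaagtggcTGATGCAAgctgtccaggg
CEBPG (chr19:33374060-33374089, plus): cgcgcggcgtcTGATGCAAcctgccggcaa
GOT1 (chr10:99430804-99430833, minus): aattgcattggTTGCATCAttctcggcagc
MTHFD1L (chr6:150866346-150866375, plus): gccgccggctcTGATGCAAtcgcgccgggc
JDP2 (chr14:75427995-75428024, plus): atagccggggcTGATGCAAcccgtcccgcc
The log2 fold changes of these genes were −0.87 for CHAC1, −0.57 for the neutral amino acid carrier SLC1A4, −0.56 for the branched-chain transaminase BCAT1, −0.51 for the glutamine carrier SLC1A5, −0.36 for CEBPG, −0.36 for the aspartate transaminase GOT1, −0.25 for the folate enzyme MTHFD1L and −0.23 for the bZIP repressor JDP2.

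In the endoplasmic reticulum, of 28 chaperone and unfolded protein response genes 6 fell and 2 rose (1 and 1 without the block; median −0.06). HERPUD1, a component of protein disposal from the reticulum, fell by 0.3, but failed without the block (adjusted p = 0.105). The stress kinase gene EIF2AK3, also known as PERK, rose from 20.3, 17.5 and 17.3 CPM to 29.1, 24.6 and 24.8 CPM (log2 fold change 0.51, SE 0.09), and ERO1A, the oxidase that drives disulfide formation, rose by 0.32 (SE 0.05, adjusted p = 3.99e-06), though it failed without the block (adjusted p = 0.111). With sh78 the same 2 genes changed by −0.06 and −0.3, and sh78 lay below sh76 for both (adjusted p = 3.1e-06 and 6.9e-13).

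**Figure D3:**
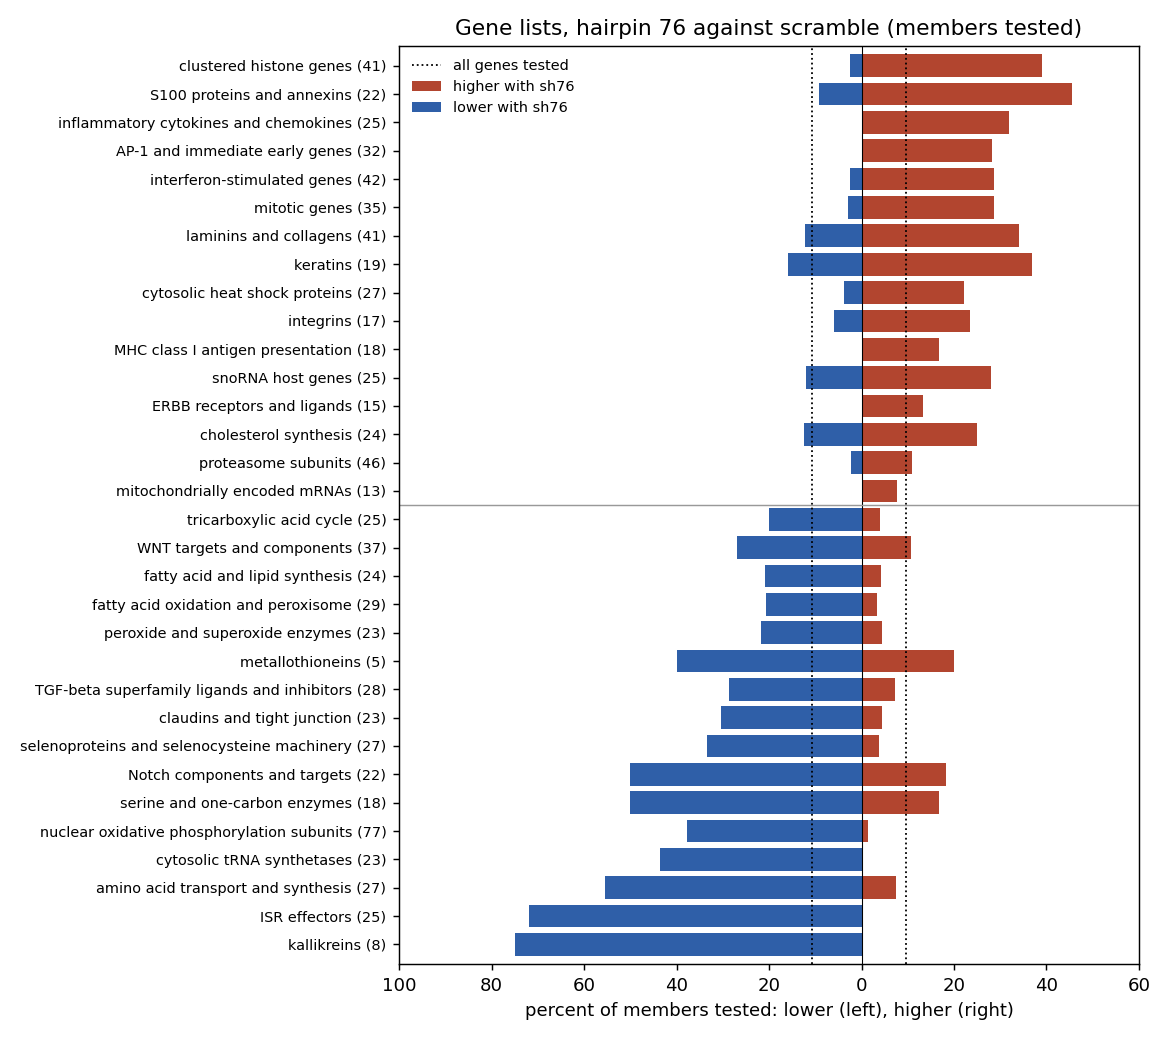
Percent of the members tested that were called lower (blue, left) or higher (red, right) with sh76 in the 16 lists most tilted to each side, among lists of at most 100 members; the number tested is in brackets and the dotted lines mark all genes tested, 10.7% lower and 9.63% higher. Kallikreins (6 of 8) and ISR effectors (18 of 25) lie furthest to the left, and histone (16 of 41) and S100 and annexin genes (10 of 22) furthest to the right.

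Among redox genes, of 27 selenoprotein and selenocysteine machinery genes 9 fell and 1 rose (2 and 0 without the block; median −0.09). GPX3, the gene targeted, is a member of this list and is counted among the falls in both fits. SELENOP, the plasma carrier of selenium, went from 9.32, 5.81 and 6.14 CPM to 5.37, 2.52 and 2.86 CPM (log2 fold change −1.02, SE 0.17, adjusted p = 1.08e-05). Its replicate 1 was high in both groups, and without the block it failed (adjusted p = 0.178). SELENOM, a thioredoxin-like protein of the reticulum, fell by 0.4 in both fits (adjusted p = 5.34e-04 and 0.0413), and the synthase gene SEPSECS, which makes selenocysteine on its tRNA, fell by 0.33 with the block. GPX4, which protects membranes from lipid peroxides, fell by 0.25, and GPX1 had a fold change of −0.01. Of 26 glutathione genes 5 fell and 2 rose, among them GSTP1, an abundant glutathione transferase, from 406, 381 and 433 CPM to 300, 269 and 309 CPM (log2 fold change −0.48, SE 0.04, adjusted p = 5.54e-11), and GCLC, the first enzyme of glutathione synthesis, which rose by 0.27. GCLC overlapped between the groups and failed without the block (adjusted p = 0.292). Without the block 2 of the glutathione genes fell and 0 rose. Of 23 peroxide and superoxide enzymes 5 fell and 1 rose (1 and 0 without the block), PRDX2 and PRDX5 by −0.29 and −0.25. PRDX2 missed the threshold without the block (adjusted p = 0.0605). The 25 targets of NRF2, the factor that induces antioxidant genes, split into 8 lower and 5 higher (3 and 2 without the block; median −0.01, with −0.11 without scramble replicate 2 and 0.01 without sh76 replicate 2). AKR1B1, aldose reductase, fell by 0.43, whereas ABCC3, a conjugate exporter, rose from 5.53, 5.69 and 7.64 CPM to 10.5, 13.2 and 14.6 CPM (log2 fold change 1.02, SE 0.13). Both ferritin chains fell: FTL by 0.42 (adjusted p = 7.69e-10) and FTH1 by 0.31.

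In mitochondrial energy metabolism, of 77 nuclear-encoded subunits of oxidative phosphorylation 29 fell and 1 rose, with a median of −0.12, but 5 passed without the block. NDUFC2, a subunit of complex I, went from 249, 204 and 215 CPM to 190, 158 and 157 CPM (log2 fold change −0.4, SE 0.04), and NDUFA4L2, a paralog of a complex IV subunit, fell by 1.01 (SE 0.16). Of 13 mitochondrially encoded mRNAs 1, MT-CO3, was called, at 0.11 (adjusted p = 0.0391; 0.446 without the block), and their median was 0.07 (0.04 without sh76 replicate 2). MT-CO3 lost its call in each of the 9 fits that left out libraries. Of 25 genes of the tricarboxylic acid cycle 5 fell and 1 rose, and of 29 genes of fatty acid oxidation and the peroxisome 6 fell and 1 rose. Among lipid synthesis genes FADS1 and FADS2, the neighbouring desaturases of polyunsaturated fatty acids, fell by 0.58 and 0.39 in both fits. Cholesterol genes split into 6 higher and 3 lower. The lactate carrier SLC16A1 fell from 211, 221 and 216 CPM to 126, 135 and 122 CPM (log2 fold change −0.76, SE 0.04, adjusted p = 1.21e-17), while the glycolytic enzyme GPI rose by 0.39 (SE 0.04). Ribosomal protein genes were called in 15 of 85 cases, 11 lower and 4 higher, and none passed without the block in edgeR (9 at an unadjusted p under 0.05).

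Proteases and inhibitors of the epithelial surface followed. The kallikreins are secreted serine proteases encoded side by side on chromosome 19, and several are abundant in ovarian carcinoma. Of 15 listed, 8 had enough counts for the test, 6 fell and none rose, with a median of −0.95, and 2 passed without the block. The median ran from −0.96 to −0.28 over the alternatives, with the value nearest 0 at a minimum count of 50. KLK6 went from 34.3, 36.3 and 39.4 CPM to 14.6, 14.4 and 15 CPM (log2 fold change −1.32, SE 0.09, adjusted p = 4.63e-15). KLK7 went from 19.8, 24.9 and 25.8 CPM to 13.8, 14.1 and 16.3 CPM (log2 fold change −0.68, SE 0.1), and KLK10 from 61.6, 61.7 and 60.1 CPM to 45.9, 52.1 and 52.3 CPM (log2 fold change −0.29, SE 0.06). With sh78 the same 3 genes had log2 fold changes of −2.4, −1.73 and −1.25, and sh78 lay below sh76 for each (adjusted p = 5.9e-10, 1.8e-08 and 1.5e-13). KLK14 fell by 1.32 with sh76 at under 2 CPM (adjusted p = 0.0111; 0.0874 without the block; called in 3 of 9 fits that left out libraries). Of 42 metalloproteinases and their inhibitors 7 fell and 3 rose. PLAU, the urokinase activator of plasminogen, rose by 0.49 (SE 0.06, adjusted p = 2.52e-06), from 68, 66.8 and 78.6 CPM to 86.8, 110 and 103 CPM, and THBS1, a matrix glycoprotein, by 0.64 (SE 0.06).

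The keratins and the S100 and annexin genes each had more members called higher than lower. Of 19 keratin genes tested 7 rose and 3 fell, with a median of 0.23, and 1 rose without the block. KRT5, a basal keratin, went from 29.9, 31.5 and 38.4 CPM to 33.5, 55.8 and 71.2 CPM (log2 fold change 0.66, adjusted p = 0.0197), and KRT4, a keratin of wet stratified epithelia, from 148, 200 and 233 CPM to 214, 303 and 324 CPM (log2 fold change 0.53, adjusted p = 0.0258). For both genes replicate 1 was the lowest of its group, the groups overlapped, and the call was lost without the block (adjusted p = 0.209 and 0.392) and in 4 of 9 fits that left out libraries. KRT17 fell by 0.51 (adjusted p = 0.0216; 0.504 without the block; called in 2 of 9 fits that left out libraries). Of 22 S100 and annexin genes 10 rose and 2 fell (4 and 0 without the block; median 0.17). S100A2 rose by 0.99, and S100A6 went from 319, 274 and 308 CPM to 420, 383 and 415 CPM.

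Adhesion and matrix genes moved in both directions. Of 41 laminin and collagen genes 14 rose and 5 fell (4 and 3 without the block). Their median was 0.21 and ran from 0.05 to 0.26 over the alternatives, the lowest without replicate 2 of all groups. COL5A2, a fibrillar collagen chain, went from 68.1, 76.9 and 74.2 CPM to 119, 146 and 155 CPM (log2 fold change 0.94, SE 0.05, adjusted p = 1.94e-17). LAMA3, the alpha chain of laminin 332 in the epithelial basement membrane, went from 103, 106 and 121 CPM to 162, 192 and 203 CPM (log2 fold change 0.75, SE 0.13, adjusted p = 0.0177), and lost its call in 4 of 9 fits that left out libraries (without scramble replicate 3, sh76 replicate 1, sh76 replicate 3 or all of replicate 3). COL26A1 fell from 187, 191 and 214 CPM to 108, 105 and 119 CPM (log2 fold change −0.83, SE 0.04), and LAMC3 fell by 0.94. In all 4 genes the groups did not overlap. The integrin subunit genes ITGB6 and ITGA2, for receptors of latent TGF-beta and of collagen, rose by 0.98 and 0.74, the second with the block alone, while ITGB5 fell by 0.63 with the block alone. Of 23 claudin and tight junction genes 7 fell and 1 rose, CLDN6 by −0.47. The nectins, junctional adhesion molecules, divided: NECTIN4 rose by 0.64, NECTIN1 rose by 0.68 and NECTIN2 fell by 0.38. NECTIN1 was called in 6 of 9 fits that left out libraries, over which its fold change ran from 0.48 to 0.94. In the list of 24 desmosome and adherens junction genes that holds the nectins 4 rose and 3 fell (1 and 1 without the block).

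Among signalling genes, many Notch targets fell and several immediate early genes rose. In the Notch pathway a ligand on one cell binds the receptor of its neighbour, proteases of the receiving cell then cut the receptor, and its freed part induces the HES and HEY repressors. Of 22 components and targets 11 fell and 4 rose (4 and 0 without the block; median −0.21). HEY2 went from 23.3, 19 and 19.5 CPM to 15.3, 9.55 and 13 CPM (log2 fold change −0.72, SE 0.1, adjusted p = 7.6e-07), HEY1 fell by 0.53, and with the block alone HEYL fell by 0.46, the ligand DLL3 fell by 0.42 and the receptors NOTCH1 and NOTCH2 rose by 0.14 and 0.12. HEYL and DLL3 were called in 2 and 3 of 9 fits that left out libraries. Of 28 ligands and inhibitors of the TGF-beta superfamily 8 fell and 2 rose (4 and 1 without the block), among them BMP7, from 714, 678 and 661 CPM to 575, 449 and 435 CPM (log2 fold change −0.51, SE 0.05), and the target ID2 (−0.63, SE 0.09). Of 37 WNT genes 10 fell and 4 rose, with the receptors FZD7 and FZD8 lower by 0.55 and 0.51 on the log2 scale and the ligand WNT9A higher by 0.79. Of 32 AP-1 and immediate early genes, which growth factor signals switch on within minutes, 9 rose and none fell (3 rose without the block; median 0.05, with 0.01 without scramble replicate 2 and 0.11 without scramble replicate 1). EGR1 went from 21.2, 24 and 26.1 CPM to 37.4, 46.5 and 43.9 CPM (log2 fold change 0.84, SE 0.08, adjusted p = 1.08e-11), FOS rose by 0.7, and ETV5 and DUSP5, targets of ERK signalling, rose by 0.73 and 0.79 with the block alone. EGR3 rose by 1.35 at 1.61 to 8.45 CPM (adjusted p = 2.22e-06; 0.148 without the block).

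More inflammatory and interferon genes were called higher than lower. A gene low with scramble could pass the count filter through the hairpin libraries alone, which favours rises. Of 34 cytokine and chemokine genes listed, 25 were tested. The counts of low genes are therefore no independent evidence of a tilt. Of 25 cytokine and chemokine genes 8 rose and none fell, with a median of 0.38 (0.14 to 0.48 over the alternatives, lowest with limma on log2(FPKM + 1)), and none passed without the block in edgeR (7 at an unadjusted p under 0.05). CCL28, an epithelial chemokine and the abundant one of the group, went from 192, 210 and 192 CPM to 246, 322 and 281 CPM (log2 fold change 0.51, SE 0.09, adjusted p = 5.42e-03; 0.0532 without the block). CXCL8, the neutrophil attractant, lay at 1.8, 2.58 and 2.41 CPM with scramble and at 3.64, 4.41 and 3.1 CPM with sh76 (log2 fold change 0.7, adjusted p = 0.0189), but was called in 3 of 9 fits that left out libraries, over which its fold change ran from 0.53 to 0.93. The 8 leukocyte markers summed to 0.806 to 1.32 FPKM with scramble and 1.42 to 1.55 with sh76, and their part in these changes was not tested. Of 42 interferon-stimulated genes 12 rose and 1 fell (1 and 0 without the block). Their median was 0.18 and ran from 0.09 with limma on log2(FPKM + 1) to 0.23 without replicate 2 of all groups. PARP9 rose by 0.34 in both fits, and USP18, a negative regulator of interferon signalling, fell by 0.37 with the block alone and was called in 3 of 9 fits that left out libraries. TAPBP, which loads peptides on MHC class I molecules, went from 98.6, 93.5 and 95.3 CPM to 150, 156 and 166 CPM (log2 fold change 0.72, SE 0.05, adjusted p = 2.17e-15).

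Proliferation genes changed little in size. Of 35 mitotic genes 10 rose and 1 fell (3 and 0 without the block; median 0.11, and 0.17 without sh76 replicate 2), with MKI67, the Ki-67 antigen, at 405, 408 and 393 CPM with scramble and 494, 490 and 509 CPM with sh76 (log2 fold change 0.31, SE 0.04, adjusted p = 4.58e-07). Of 45 replication factors 4 rose and 2 fell. Among cell cycle inhibitors CDKN1C fell by 0.69 (SE 0.09) and CDKN2B and CDKN2C rose by 0.49 and 0.54, all in both fits. Of 26 p53 targets 7 fell and 3 rose, and the stress sensor SESN2, which is also an ISR effector, fell from 31.4, 31.2 and 31.2 CPM to 21.9, 22.3 and 20.3 CPM (log2 fold change −0.54, SE 0.08).

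More histone and long non-coding genes were called higher than lower, a tilt upward among the calls. Of 41 clustered histone genes 16 rose and 1 fell, with a median of 0.33, and 2 rose without the block. These 41 are the ones tested of 84 listed. Those low with scramble could pass the count filter through the hairpin libraries alone, so the count is no independent evidence of direction. HIST1H4E went from 2.89, 1.7 and 1.32 CPM to 3.95, 4.12 and 3.67 CPM (log2 fold change 1.03, SE 0.22), and HIST1H3G rose by 0.69. Most histone mRNAs lack the poly-A tail by which these libraries were made, so their levels here are those of the captured fraction, and near-identical copies share reads. Of 2071 non-coding genes (long intergenic, antisense and other classes) 191 rose (9.22%) and 40 fell (1.93%), with a median of 0.18, against 1378 (10.1%) and 1757 (12.8%) of 13709 protein-coding genes, with a median of −0.01. Without the block 34 rose and 6 fell. Genes were also split by their mean CPM with scramble. Among non-coding genes 46 rose and 5 fell of 845 under 1 CPM, 79 and 11 of 915 from 1 to 5 CPM, and 66 and 24 of 311 at 5 CPM or more. A gene low with scramble could pass the count filter through the hairpin libraries alone, which favours rises under 1 CPM in either class. The counts under 1 CPM are therefore no evidence of a tilt. Protein-coding genes under 1 CPM also had more rises than falls, 44 and 11 of 825 (5.33% and 1.33%; median 0.12), while 6.41% rose and 6.36% fell of 1934 from 1 to 5 CPM, and 11.1% and 14.8% of 10950 at 5 CPM or more. The sh76 libraries had counts in 26554 to 27424 genes, against 25706 to 26283 with scramble, and protein-coding genes took 97.33% to 97.46% of their counts against 97.48% to 97.61%; the part of these differences in the tilt was not tested. LINC00472 rose from a mean of 3.59 to 7.57 CPM (log2 fold change 1.06) and BMPR1B-DT fell from 9.39 to 3.17 CPM (log2 fold change −1.61). Among snoRNA host genes SNHG4 and SNHG19 rose by 0.75 and 0.61, from 34.8, 40.7 and 32.2 CPM to 55.8, 65.6 and 59.5 CPM for SNHG4.

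Transcription factor genes as a whole were called at the rate of all genes: of 1167 tested 117 rose and 116 fell (20%). The families differed in count, with 41 higher and 19 lower of 524 C2H2 zinc finger genes and 5 higher and 16 lower of 61 basic helix-loop-helix genes; the HEY and HES genes above belong to the second family.

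By chromosome the calls were uneven. On chromosome 1, 305 genes were higher and 134 lower of 1734 tested (median 0.06). On chromosome 11, 57 were higher and 179 lower of 914. Chromosomes 4, 16, 19, 20, 21 and X also held over 2 times as many lower as higher calls. Higher and lower calls were 35 and 113 of 611 on chromosome 4 and 29 and 74 of 756 on 16. They were 70 and 177 of 1173 on 19, and 30 and 93 of 459 on 20. On 21 they were 11 and 34 of 205, and on X 31 and 69 of 572. Calls in either direction made up 13.6% on 16 and 17.5% on X, under the 20.4% of all genes. The ratios on 16 and X therefore show no excess of calls. In contrast, chromosome 8 had 93 higher and 43 lower of 598 and chromosome 6 had 109 and 59 of 854. Among runs of 25 neighbouring genes tested, the lowest median was −0.3, in overlapping runs on chromosome 4, of which the run from SLIT2 to STIM2 (20253260 to 27025381) had 12 genes lower and none higher. With sh78 the same run had a median of −0.145. The highest median was 0.389, in the run from PFN1P4 to BOLA1 on chromosome 1 (148129497 to 149900798), which had 9 genes higher and none lower and a median of 0.202 with sh78. A run on chromosome 6 through the first histone cluster, from RIPOR2 to HIST1H4H (24804281 to 26285638), had a median of 0.343 with 11 genes higher and 1 lower, and a median of −0.009 with sh78. Copy number in the 3 groups was not measured, and its part in these runs was not tested.

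**Figure D4:**
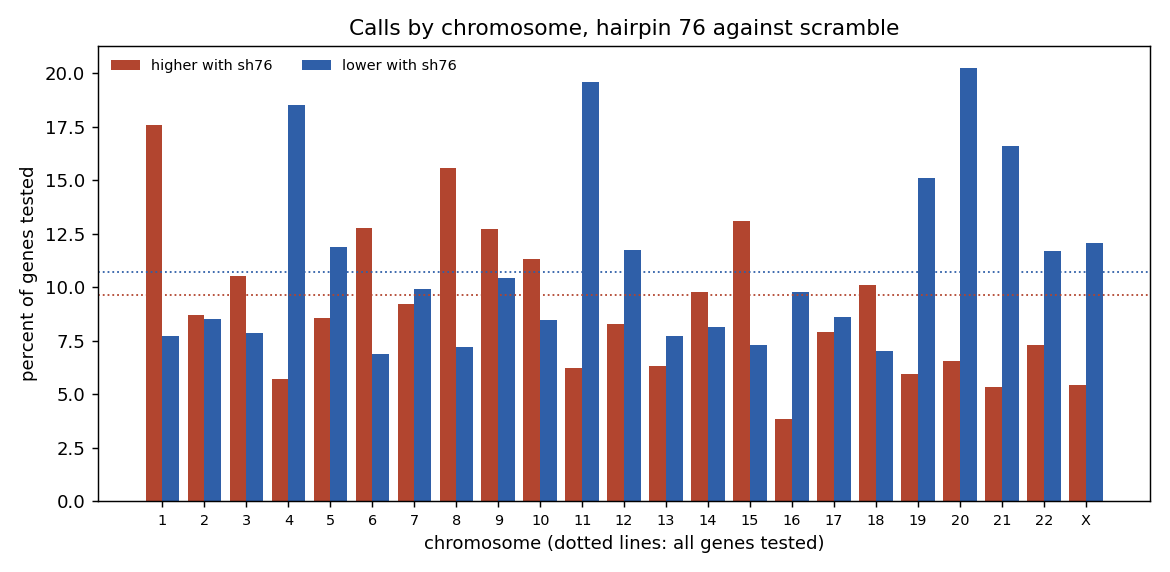
Percent of the genes tested on each chromosome that were called higher (red) or lower (blue) with sh76; the dotted lines give the shares over all genes, 9.63% and 10.7%. Chromosome 1 has 305 higher and 134 lower genes, while chromosomes 4, 11, 16, 19, 20, 21 and X hold over 2 times as many lower as higher genes. In either direction 13.6% of genes on 16 and 17.5% on X were called, against 20.4% over all genes.

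The levels with sh78 show where sh76 stands apart. Against the shared scramble libraries sh78 had 3388 genes called (19.9%), and sh78 against sh76 had 3117 (18.3%), with 1650 genes higher in sh78 and 1467 lower. There were 535 genes at which sh76 lay above both other groups and 674 at which it lay below both, by the 2 tests. The comparisons share libraries, so the values are given side by side. ADAMTS8, lower with sh76, stood at 16.8, 14.9 and 13.8 CPM with sh78 against 8.39, 7.07 and 4.58 CPM with sh76 (log2 difference 1.2, adjusted p = 1.7e-10). IGFBP4, a binding protein of insulin-like growth factors, had 145, 151 and 156 CPM with scramble, 57.9, 73.4 and 82 CPM with sh76 and 97.1, 135 and 112 CPM with sh78, and AEBP1, a matrix protein of the carboxypeptidase family, had 12.5, 16.1 and 15.2, then 5.18, 8.24 and 7.16, and then 10.1, 12.4 and 15.6 CPM. In both, sh76 was the lowest group with no overlap, and the rule for naming them required its separation from scramble. ATP6V1C2 lay at 3.34 to 3.38 CPM with sh78, under a log2 difference of −1.64 from sh76 (adjusted p = 1.1e-10).

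By list, epithelial genes held many differences between the hairpins. Among 19 keratins sh78 had 3 higher and 9 lower than scramble, with a median of −0.38, and 11 were lower with sh78 than with sh76 and 1 higher. KRT19 lay at 1140, 1310 and 1400 CPM with sh78, below the scramble libraries, at 1530, 1580 and 1670 CPM, and below those with sh76, at 1910, 2060 and 2170 CPM. Of 22 S100 and annexin genes 8 were lower and 1 higher with sh78 than with scramble, and 14 were lower and 1 higher with sh78 than with sh76. S100A6 had 214, 229 and 224 CPM with sh78, the lowest of the 3 groups. Of 32 immediate early genes 9 were lower and 2 higher with sh78 than with sh76, EGR1 with 18.7, 28.1 and 24.7 CPM, and of 25 snoRNA host genes 8 were lower and 2 higher. LAMA3 had 52.9, 88.3 and 74 CPM with sh78, below every scramble library. Glycolysis genes also differed: 13 of 24 were lower with sh78 than with sh76 and 1 higher, while 4 fell and 3 rose with sh76 against scramble. In the amino acid lists, 7 of 25 ISR effectors were lower and 1 higher with sh78 than with sh76, the median against scramble being −0.45 with sh78. Of 18 serine and one-carbon enzymes 1 was lower and 3 were higher, of 27 genes of amino acid transport and synthesis 1 was lower and 4 were higher, and of 23 cytosolic synthetase genes 2 were lower and 1 higher.

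**Figure D5:**
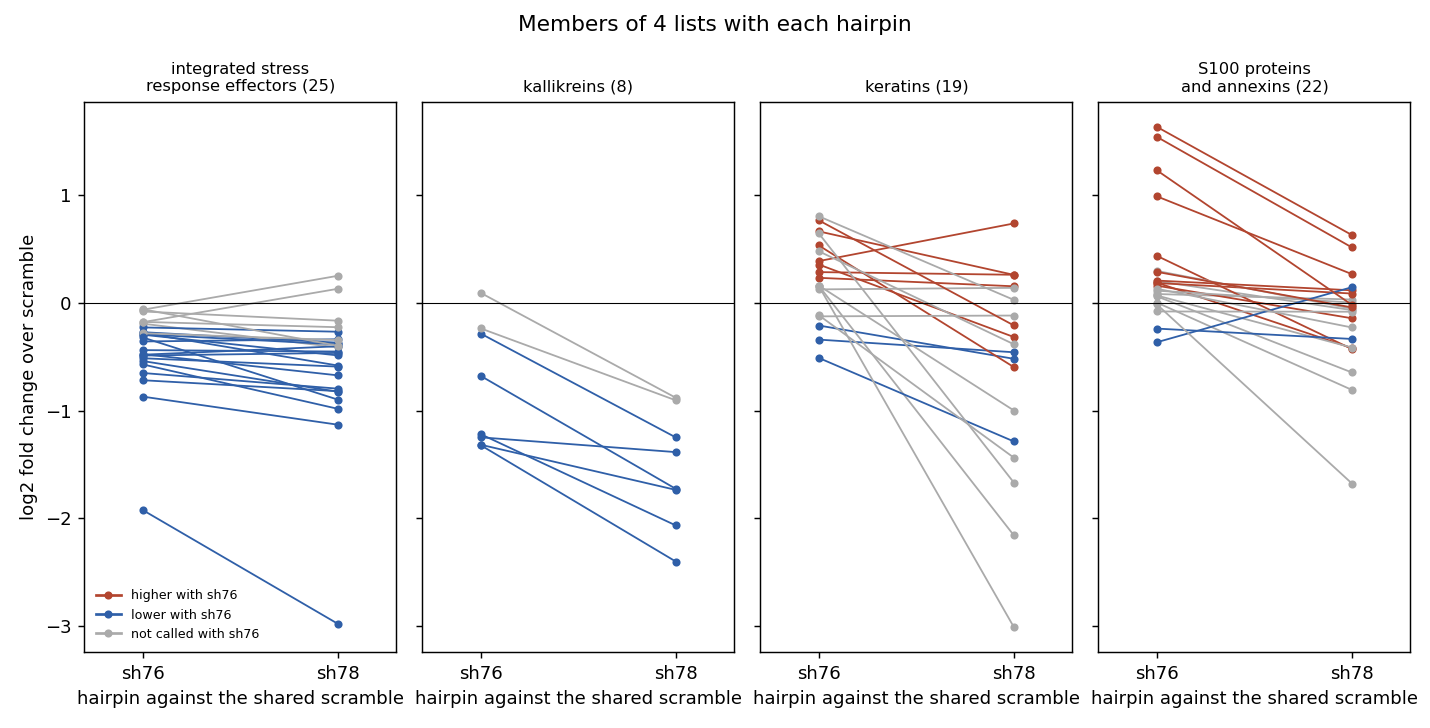
Log2 fold change over the shared scramble libraries for each member tested of 4 lists, with sh76 on the left and sh78 on the right of each panel and 1 line per gene; red and blue lines are genes called higher and lower with sh76. In the keratin panel 11 of 19 genes were lower with sh78 than with sh76 by the test of that difference, and in the kallikrein panel 5 of 8.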

How the data were processed

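Gene counts and FPKM values, as deposited by the authors, covered 58735 genes in 9 libraries. Per the submitters' processing notes, HISAT2 2.0.5, featureCounts 1.5.0-p3 and hg38 were used. Per the labels, the libraries were poly-A selected and non-directional, so overlapping genes on opposite strands cannot be told apart.

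Genes passing filterByExpr (minimum count 10, minimum total 15) were fitted with edgeR 4.0.16 (R 4.3.3) over all 9 libraries: TMM scaling, 1 coefficient per group, the replicate number as a block, robust quasi-likelihood F tests and Benjamini-Hochberg adjustment over 17023 genes, called under 0.05. Same-numbered libraries of different groups deviated together (r from 0.14 to 0.39 in all 9 pairs, against −0.31 to 0.06 for other pairs), so the numbers were taken to pair samples. The common biological coefficient of variation was 4.69% with the block and 10.41% without. Fold changes are edgeR's; levels are CPM, or FPKM between genes. No library repeated another (chi-square per degree of freedom 4.9 to 11.07 within groups). The fit was tested on simulated data.

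Genes named were GPX3, GDF15, the 12 highest and 12 lowest called protein-coding genes at 1 FPKM or more without overlap of libraries, the 6 largest FPKM gains and losses, the 5 highest and 5 lowest apart from both groups, and up to 4 called members per list. ATF4, ATF5, DDIT3, CEBPG, GPX1, GPX4, FOS, NOTCH1, NOTCH2, the genes with a promoter match and the non-coding genes were added after their values were seen. A gene that the rule names is not reported here. The members and lists were chosen with earlier results of these data known. Alternatives were DESeq2 1.42.0, limma 3.58.1 on log2 FPKM, other scalings and filters, and leaving out libraries.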

Additional observations from a re-analysis of the deposited data

Results flagged for a closer look

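The 2 hairpins differed from each other in 3117 genes. Of the genes named outside the lists, 24 passed the test of sh78 against sh76 with the replicate block, and 13 of them passed without it. On the log2 scale sh78 lay below sh76 in 17: SSX2 (−2.97), FGFBP1 (−1.7), ATP6V1C2 (−1.64), PPP1R27 (−1.62), MALL (−1.45), S100A8 (−1.25), GDF15 (−1.06), S100A3 (−1.03), S100A9 (−1.01), GPX3 (−0.88), S100A6 (−0.87), KCNQ3 (−0.71), KRT19 (−0.67), OR7D4 (−0.65), HSP90AA1 (−0.28), RPS27 (−0.16) and KRT18 (−0.12). It lay above sh76 in 7: ADAMTS8 (1.2), AEBP1 (0.89), CRB2 (0.77), IGFBP4 (0.69), KIF26B (0.41), MDK (0.35) and RPS3 (0.19). The 11 that failed without the block were GDF15, KCNQ3, MALL, S100A3, S100A8, CRB2, KIF26B, HSP90AA1, RPS27, KRT18 and RPS3. SSX2 entered the test and the naming through its high sh76 libraries, so its difference is no independent evidence. Both hairpins share the 3 scramble libraries, and this test does not use them other than for the spread.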

How the results depend on the processing

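Among the called genes that each of the 18 alternatives tested (3209 to 3467 of 3467), none changed direction. The number of calls depended on the replicate block: without it 610 genes passed against 3467 (243 higher, 367 lower), 100 with a log2 fold change of at least 1 against 263, 629 for sh78 against sh76 and 750 for sh78 against scramble. DESeq2 with the block called 2193 (961 higher; 118 of at least 1; 1935 and 2253 for the other comparisons). On FPKM values limma called 2152 with a pseudocount of 1 (951 higher, 1201 lower; 28 of at least 1; 1943 and 2196) and 2144 with 0.1 (937 and 1207; 145; 1912 and 2205). A minimum count of 50 left 79 genes of at least 1. Leaving out libraries gave 2046 to 2879 calls (853 to 1325 higher, 1155 to 1554 lower), 1773 to 3207 for sh78 against sh76 and 2055 to 3457 for sh78 against scramble. The count fell by over 1.5 times without scramble replicate 3 (2291), sh76 replicate 2 (2225), all of replicate 2 (2046) or all of replicate 3 (2050). YARS2, which was not called (−0.02), ran from −0.0766 to 0.0193 over these fits, with positive values in 3 (0.0128, 0.0193 and 0.0149). The cause of these shifts was not tested. Genes under 1 CPM rest on fewer than 21 counts per library.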
